A study of Mus musculus with 6 samples.

Results

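The genes described here are 58 DNA replication and G1/S genes, the set that assembles, loads and runs the replication machinery, feeds it with nucleotides and drives cells out of G1. They were chosen by name and function, with earlier results of these data known. Each was read from its brightest probe set that the platform annotation pairs with 1 gene symbol, among 18193 genes measured that way. Of the 58, 57 had such a probe set, and Chaf1a was not analysed here. Expression was measured on Affymetrix mouse arrays with 2 ug of total RNA from whole liver, taken 18 hours after partial hepatectomy, an operation that removes most of the organ and starts its regrowth. The 3 Cre plus livers (A, B and C) came from Socs3 fl/fl, Alb-Cre+ mice, in which the albumin promoter drives Cre recombinase and Socs3 is excised in hepatocytes. The 3 Cre minus livers (A, B and C) came from Socs3 fl/fl, Alb-Cre- littermates. Both groups are C57BL/6, carry the floxed allele and had the same surgery, and the labels give no age. Because Cre minus mice lack the transgene, the presence of Cre and the loss of Socs3 cannot be told apart. No liver from before surgery or after a sham operation is among these arrays. The labels do not say that each array comes from a separate mouse. The p-values set each group difference only against the spread of these samples within their groups, some of which may be technical.

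Before S phase, the origin recognition complex with Cdc6 and Cdt1 loads the Mcm2 to Mcm7 helicase ring onto DNA. The kinase Cdc7 with its partner Dbf4, and cyclin E with its kinase, then turn the ring into an active helicase together with Cdc45 and the GINS complex. Most of these genes are transcribed under E2F factors, which the retinoblastoma protein holds inactive until cyclin-dependent kinases release them. Hepatocytes of the adult liver are quiescent and re-enter this programme after hepatectomy, and in the mouse the wave of hepatocyte DNA synthesis comes later after surgery than the time sampled here. Socs3 is induced by cytokines such as interleukin-6 and damps the response to them by binding their receptors and JAK kinases.

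Tissue and genotype were checked first. The 11 measured hepatocyte markers were all detected, and their mean level lay between 14.03 and 14.17 in Cre plus livers and between 14.14 and 14.22 in Cre minus livers on the log2 scale. Socs3 on its brightest probe set had log2 values of 7.44, 6.69 and 7.47 in Cre plus livers, against 9.09, 9.30 and 9.24 in Cre minus livers (log2 fold change -2.01 ± 0.22, SE, limma's adjusted p = 0.0732), with no overlap. Over the 8554 genes tested, pairs of arrays correlated at 0.987 to 0.990 within Cre plus, 0.995 within Cre minus and 0.982 to 0.993 between the groups. In RNA from whole liver, fewer cells of a type and less RNA per cell cannot be told apart.

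Promoter sequence, which the choice of genes did not use, was examined next. Windows of 300 bases, from 250 before to 50 after an annotated start (RefSeq, GRCm38.p6), were found for 48 of the 57 measured genes. They were searched on both strands for the E2F consensus, written out as TTTCCCGC, TTTCGCGC, TTTGCCGC and TTTGGCGC, where a match on one strand may overlap a match on the other. A match was present in 19 of the 48 genes (39.6%), against 550 of 14452 measured genes with a window (3.81%). Matches stood in 8 of 26 detected genes (30.8%) and in 11 of 22 genes at background (50.0%), with detection defined below. Over all genes with a window the order was the opposite, with 4.65% of detected and 3.01% of undetected genes. The difference between detected members and those at background was not tested. The 8 were Mcm3, Mcm5, Mcm6, Mcm7, Rfc3, Pold1, Pole2 and Dnmt1, and the 11 were Orc1, Cdc6, Cdt1, E2f2, Gins3, Hells, Lig1, Pola1, Pold3, Uhrf1 and Brca2. Among the other cell cycle lists described below, 9 of 30 further replication and S-phase genes, 6 of 22 genes that control RB and E2F (27.3%) and 1 of 24 mitosis and G2 genes (4.17%) held a match. A match is a description of the letters, and no match says only that these letters are not in this window. The following stretches of 60 bases, 5′ to 3′ on the gene's strand with the matched letters in capitals, are shown because 3 belong to genes that were detected (Mcm5, Mcm6 and Rfc3) and 3 to genes that were not (Orc1, Cdc6 and E2f2). They lie at chr8:75109332-75109391 (Mcm5, plus strand), chr1:128359719-128359778 (Mcm6, minus strand), chr5:151651180-151651239 (Rfc3, minus strand), chr4:108579401-108579460 (Orc1, plus strand), chr11:98907987-98908046 (Cdc6, plus strand) and chr4:136172264-136172323 (E2f2, plus strand) in GRCm38.p6.
Mcm5: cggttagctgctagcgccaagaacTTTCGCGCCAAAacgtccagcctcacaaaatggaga
Mcm6: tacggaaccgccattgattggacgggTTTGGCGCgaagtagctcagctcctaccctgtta
Rfc3: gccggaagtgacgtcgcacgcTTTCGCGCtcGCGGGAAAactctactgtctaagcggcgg
Orc1: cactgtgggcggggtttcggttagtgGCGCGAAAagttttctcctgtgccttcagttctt
Cdc6: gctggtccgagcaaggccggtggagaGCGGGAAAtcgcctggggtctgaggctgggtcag
E2f2: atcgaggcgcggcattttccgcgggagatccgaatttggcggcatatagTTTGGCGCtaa

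At 18 hours, 31 of the 57 measured genes were detected, meaning a log2 value over 4 in 3 or more of the 6 arrays, and 26 stayed at background. The share of 54.4% lies near that of all measured genes, of which 47.0% were detected. The split ran through each functional group. It took in 14 of 20 replication fork genes, 6 of 10 origin licensing genes, 4 of 8 origin firing genes, 2 of 4 G1/S regulators, 2 of 5 nucleotide supply genes, 2 of 5 S-phase chromatin genes and 1 of 5 genes of DNA repair in S phase. Levels are probe set signals, whose brightness differs between probe sets for reasons of sequence, so they do not rank genes by abundance.

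**Figure D1:**
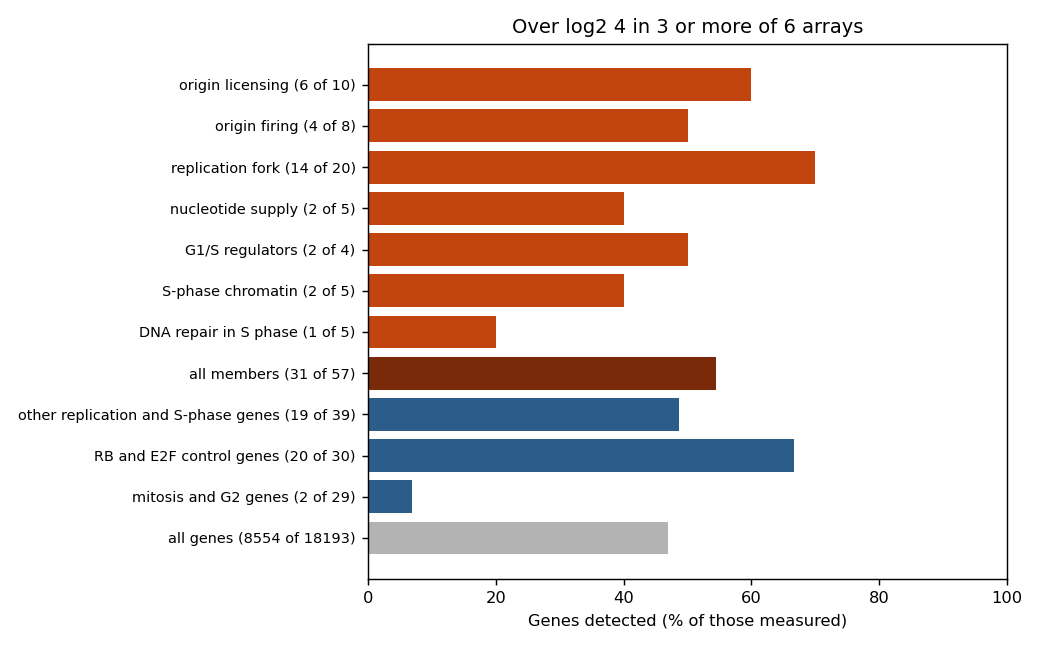
Share of measured genes detected (horizontal axis, percent; a log2 value over 4 in 3 or more of 6 arrays) for the 7 functional groups of the set, all members, 3 other cell cycle lists and all measured genes, with counts in parentheses. Detected shares reach 70.0% among replication fork genes and 66.7% among RB and E2F control genes, while 2 of 29 mitosis and G2 genes were detected.

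**Figure D2:**
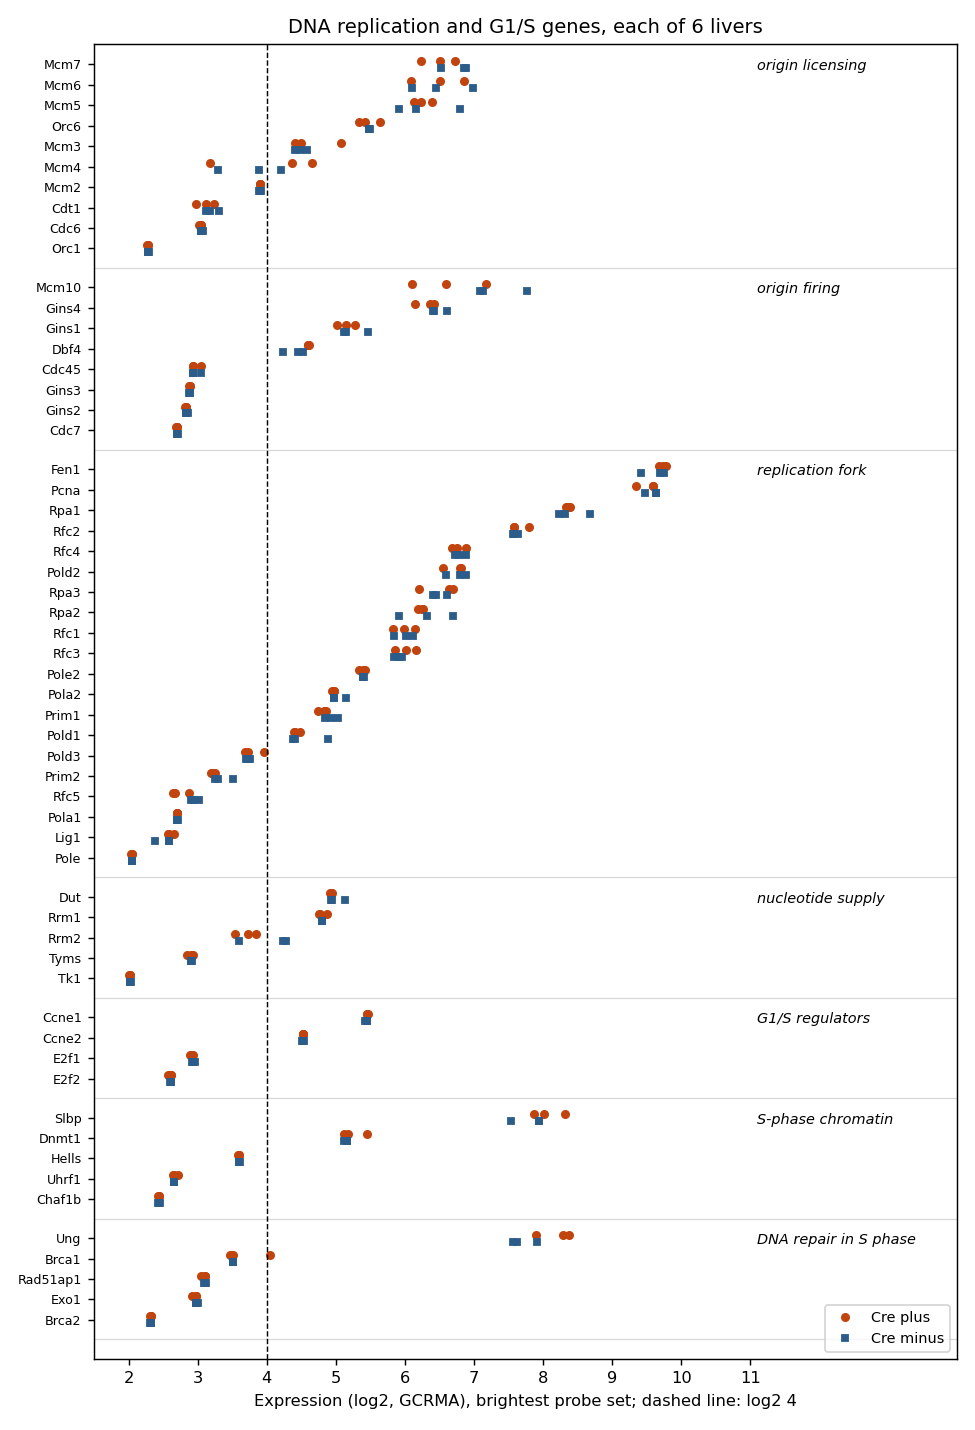
Log2 expression (horizontal axis) of the 57 measured genes in each of the 3 Cre plus livers (circles, upper row of each gene) and 3 Cre minus livers (squares, lower row), grouped by function; the dashed line marks log2 4. Points of both groups overlap for nearly every gene, and many genes left of the line have 6 nearly identical values.

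Origin licensing genes were divided. Mcm5, Mcm6 and Mcm7, subunits of the replicative helicase, were over log2 5.9 in every liver, as given below. Orc6, a subunit of the origin recognition complex, had 5.64, 5.42 and 5.34 in Cre plus livers, against 5.48, 5.50 and 5.48 in Cre minus livers. Mcm3 had 4.41, 4.50 and 5.07 in Cre plus livers, against 4.40, 4.48 and 4.58 in Cre minus livers. Cre plus C was the high liver for Mcm3, and the other 5 lay close together. Mcm4 stood at the edge of detection, with 4.66, 4.36 and 3.18 in Cre plus livers, against 4.21, 3.89 and 3.30 in Cre minus livers, so that 3 arrays were over the level. Mcm2 lay just under the level, at 3.89, 3.90 and 3.90 in Cre plus livers, against 3.89, 3.91 and 3.90 in Cre minus livers. The helicase loaders Cdc6 and Cdt1 and the origin recognition subunit Orc1 were at background. Cdc6 had 3.02, 3.05 and 3.05 in Cre plus livers, against 3.05, 3.07 and 3.04 in Cre minus livers. Cdt1 lay between 2.98 and 3.31, and Orc1 between 2.26 and 2.29, over the 6 livers.

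Among origin firing genes, Mcm10, Gins1, Gins4 and Dbf4 were detected. Mcm10 encodes a factor that helps activate the helicase, Gins1 and Gins4 encode GINS subunits, and Dbf4 encodes the activating subunit of the Cdc7 kinase. Their partners were at background, with mean levels of 2.70 for the kinase subunit Cdc7, 2.83 for Gins2, 2.88 for Gins3 and 2.97 for Cdc45. The detected and undetected genes therefore include subunits of the same complexes, namely GINS and the Cdc7 and Dbf4 kinase.

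The replication fork genes were the most often detected group. Pcna, the sliding clamp of the replicative polymerases, had 9.59, 9.35 and 9.59 in Cre plus livers, against 9.64, 9.48 and 9.63 in Cre minus livers. Fen1, the flap endonuclease that trims Okazaki fragments, had 9.67, 9.78 and 9.74 in Cre plus livers, against 9.42, 9.75 and 9.69 in Cre minus livers. Both genes were far over the level in every liver, and their groups overlapped. The clamp loader subunits Rfc1, Rfc2, Rfc3 and Rfc4 and the single-strand binding subunits Rpa1, Rpa2 and Rpa3 were also detected, with means from 5.96 for Rfc3 to 8.39 for Rpa1. The polymerase subunits Pola2, Pold1, Pold2 and Pole2 and the primase subunit Prim1 completed the detected ones. At background were the catalytic subunits Pola1 (mean 2.70) and Pole (2.05), the primase subunit Prim2 (3.28), the polymerase delta subunit Pold3 (3.76), the clamp loader subunit Rfc5 (2.84) and the DNA ligase Lig1 (2.56).

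For nucleotide supply, Rrm1, the large subunit of ribonucleotide reductase, and Dut, the dUTPase that keeps uracil out of DNA, were detected with means of 4.80 and 4.96. Rrm2, the small subunit that is made in S phase, had 3.54, 3.72 and 3.85 in Cre plus livers, against 3.59, 4.24 and 4.28 in Cre minus livers. Cre minus B and C alone were over the level, so Rrm2 was counted at background. A second Rrm2 probe set had 3.61, 3.69 and 4.25 in Cre plus livers, against 3.81, 3.77 and 3.77 in Cre minus livers. On that probe set Cre plus C alone was over the level. Tyms, thymidylate synthase, and Tk1, thymidine kinase, had means of 2.90 and 2.02. The E2F genes E2f1 and E2f2 were at background with means of 2.92 and 2.60. The chromatin assembly subunit Chaf1b (2.43), the DNA methylation cofactor Uhrf1 (2.66) and the remodelling helicase Hells (3.60) were at background too. Slbp, which binds histone mRNA, and Dnmt1, the maintenance DNA methyltransferase, were detected with means of 7.93 and 5.20. Of the repair genes, Ung, the uracil-DNA glycosylase, was the 1 detected, while Brca1 (3.59), Rad51ap1 (3.09), Exo1 (2.97) and Brca2 (2.32) were not. Brca1 exceeded the level in 1 liver, Cre plus C, at 4.04, against 3.47 to 3.52 in the other 5.

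A level over log2 4 did not always come with variation between livers. The range over the 6 arrays, the highest value minus the lowest, had a median of 0.35 in the 31 detected genes, 0.06 in the 26 at background, 0.40 in all genes tested and 0.04 in all undetected genes. A range under 0.15 was found in 19 of the 26 genes at background, against 82.3% of all undetected genes. It was also found in 4 of the 31 detected genes, namely both cyclin E genes, Pole2 and Rrm1, against 10.1% of all genes tested. These 4 had mean levels between 4 and 6, as did 15 detected members. Of all genes tested at those levels, 19.4% had a range under 0.15. Ccne1 had 5.44, 5.45 and 5.46 in Cre plus livers, against 5.45, 5.42 and 5.45 in Cre minus livers. Ccne2 had 4.52 in each of the Cre plus livers, against 4.52, 4.54 and 4.51 in Cre minus livers. Cyclin E1 and cyclin E2 partner Cdk2 at the G1/S boundary, and on the brightest probe set neither gene varied by more than 0.05 over the 6 livers. On other detected probe sets the range was 0.13 for Ccne1 and 0.49 for Rrm1. Of 19 measured genes of other organs, used to show what the arrays give for genes the liver is not known to use, 18 were undetected, with a median range of 0.06 over the 19. The 1 that passed was the sperm chromatin gene Tnp1, which lay between 4.69 and 4.75. The limit of 0.15 was chosen after the data were seen, and the cause of the narrow ranges was not tested.

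**Figure D3:**
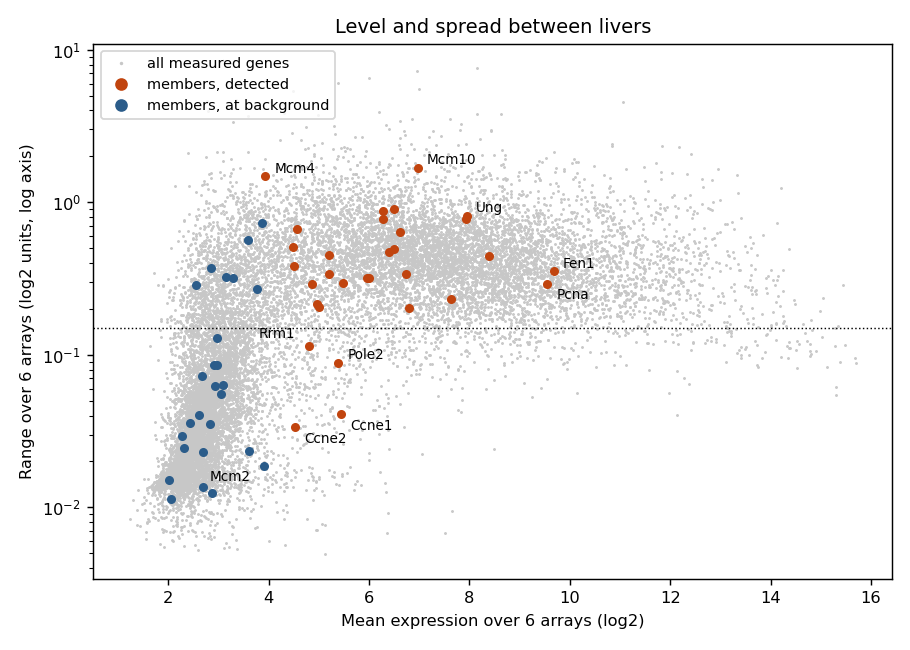
Mean log2 expression over 6 arrays (horizontal axis) against the range over the arrays in log2 units (vertical log axis) for all 18193 measured genes (grey), the 31 detected members (orange) and the 26 at background (blue). Ccne1, Ccne2, Pole2 and Rrm1 lie right of log2 4 but under the dotted line at a range of 0.15.

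Detection often rested on 1 probe set. Of the 31 detected genes, 7 had a single probe set, and in 13 of the other 24 only the brightest one was detected. Mcm10 had a mean of 6.98 on its brightest probe set, while the others had 2.37 and 2.27. For Mcm5 the means were 6.27, 2.69 and 2.52, and for Slbp they were 7.93, 2.93 and 2.18. Fen1 was detected on both of its probe sets, with means of 9.68 and 4.85. Mcm7 was detected on 3, with means of 6.62, 6.02 and 6.00. In 7 detected genes, Mcm3, Mcm4, Mcm5, Mcm7, Pold1, Fen1 and Ccne1, the brightest probe set is of the _x_at or _s_at type, which can also bind other transcripts. Signals of different probe sets are not on a common scale, so these values show which passed the level and not how much transcript each saw.

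**Figure D4:**
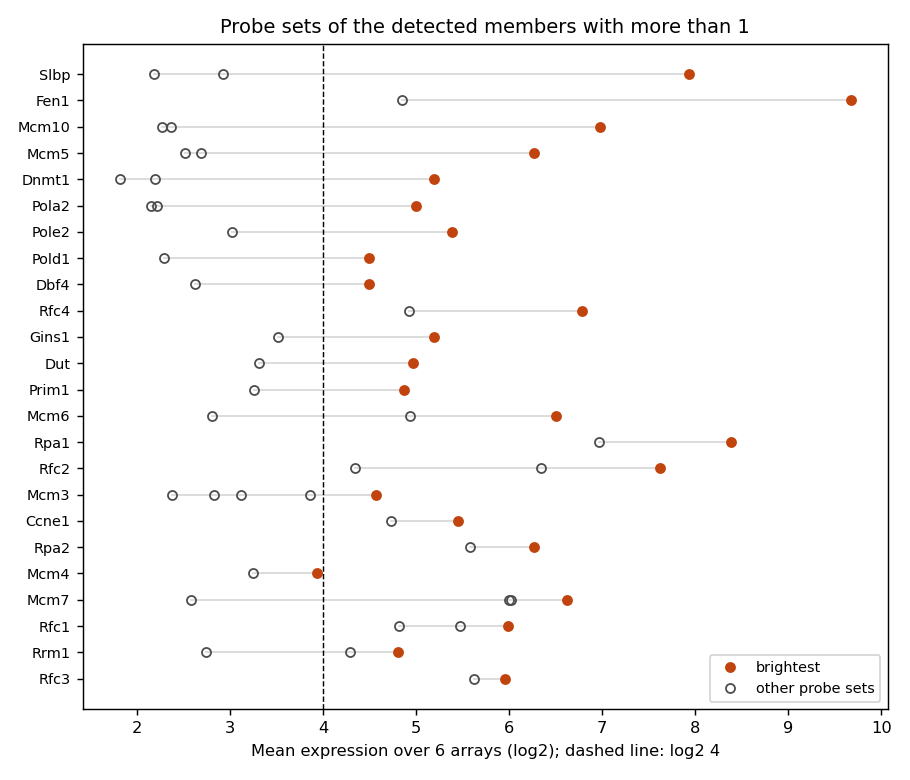
Mean log2 expression over 6 arrays (horizontal axis) of every single-symbol probe set of the 24 detected members that have more than 1, with the brightest filled and the others open; the dashed line marks log2 4. In 13 genes all open circles lie left of the line.

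Cre plus and Cre minus livers were then compared. None of the 31 detected genes passed an adjusted p under 0.05 in limma over the 8554 genes tested, where 2 genes passed in all (0.0234%). At an unadjusted p under 0.05 the count was 1 of 31 (3.23%), against 14.8% of all genes tested. That gene was higher in Cre plus, as were 6.62% of all genes at that p, and 0 members were lower, against 8.21% of all genes. The groups did not overlap in 1 of 31 (3.23%), against 21.2% of all genes. Higher values in Cre plus were found for 12 genes and lower values for 19 (61.3%), against 53.5% lower among all genes. The median log2 fold change was -0.02 for the members and -0.01 for all genes tested. The split between higher and lower turned on single livers, since without Cre minus A 19 genes were higher and 12 lower, with a median of 0.02, and without Cre plus C 16 were higher and 15 lower, with a median of 0.01.

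The fold changes were small, with sizes under 0.2 on the log2 scale in 26 of the 31 genes (83.9%, against 70.9% of all genes tested). The detected members also had lower levels, with a median of 5.99, against 7.30 in all genes tested. Fold changes shrink near background, and the part of level in these shares was not tested. The 95% interval lay within 0.5 of 0 in either direction for 22 genes and within 1 for 29, so that for the others a change of that size is not excluded by the data. The 2 whose interval reached past 1 were Mcm4 (-0.79 to 1.34) and Mcm10 (-1.49 to 0.08). A p that misses the threshold does not show that the levels were equal.

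**Figure D5:**
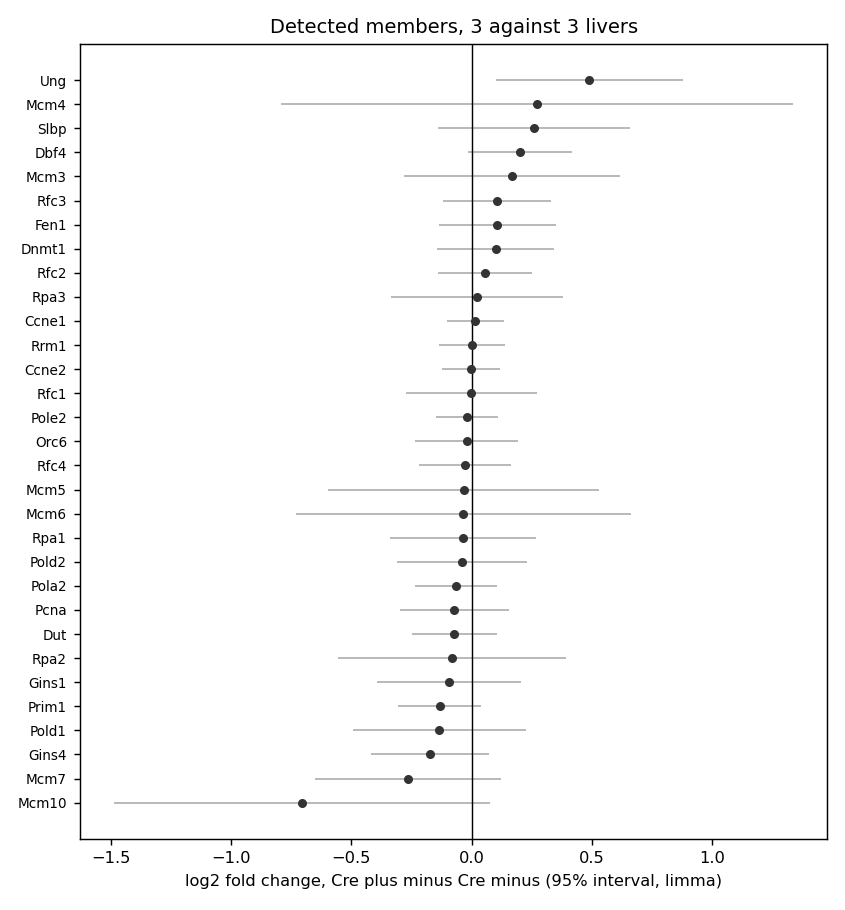
Log2 fold change of the 31 detected members (horizontal axis, Cre plus minus Cre minus, positive when higher in Cre plus) with the 95% interval from limma, 3 against 3 livers. The intervals of 30 genes include 0, and the exception is Ung.

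Ung, which removes uracil from DNA, was the 1 detected member at an unadjusted p under 0.05. It had 8.29, 8.38 and 7.89 in Cre plus livers, against 7.62, 7.91 and 7.57 in Cre minus livers. Cre plus A and B were the high livers, while Cre plus C and Cre minus B met at about the same value. The log2 fold change was 0.49 ± 0.16 (SE), with a 95% interval of 0.10 to 0.88, an unadjusted p = 0.0221 and limma's adjusted p = 0.263. Its unadjusted p was over 0.05 when Cre plus A or B, or Cre minus A or C, was left out. Of the high livers for Ung, Cre plus A had the highest mean level of the detected neutrophil markers (9.66) and Cre plus B the lowest (7.92). A link between Ung and these markers was not tested.

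Dbf4 was the 1 detected member whose groups did not overlap on the brightest probe set. It had 4.59, 4.61 and 4.60 in Cre plus livers, against 4.53, 4.23 and 4.45 in Cre minus livers. The Cre plus values were nearly the same and the Cre minus values spread below them, giving a log2 difference of 0.20 ± 0.09 (limma's adjusted p = 0.362). It was 0.11 without Cre minus B and 0.26 without Cre minus A, where Dbf4 was the 1 member at an unadjusted p under 0.05. Its partner kinase gene Cdc7 was not detected, as given above.

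Mcm10 had the fold change furthest from 0. Its values were 6.60, 7.17 and 6.10 in Cre plus livers, against 7.77, 7.12 and 7.09 in Cre minus livers. The groups overlapped because Cre plus B lay over Cre minus B and C, and the log2 fold change was -0.71 ± 0.32 (limma's adjusted p = 0.372). It was -0.98 without Cre plus B, where the unadjusted p was under 0.05, -0.44 without Cre plus C and -0.48 without Cre minus A.

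The helicase subunits overlapped between the groups. Mcm7 had 6.72, 6.51 and 6.23 in Cre plus livers, against 6.88, 6.86 and 6.52 in Cre minus livers (log2 fold change -0.26 ± 0.16, limma's adjusted p = 0.486). It was -0.14 without Cre plus C, and the other detected probe sets of Mcm7 gave -0.17 and -0.01. Mcm6 had 6.51, 6.85 and 6.08 in Cre plus livers, against 6.99, 6.11 and 6.45 in Cre minus livers, and its means were 6.48 ± 0.38 and 6.52 ± 0.45 (SD, n = 3 each). Mcm5 had 6.23, 6.39 and 6.13 in Cre plus livers, against 6.79, 5.91 and 6.16 in Cre minus livers. Cre minus A was the highest liver for Mcm5 and Mcm6, and Cre minus B was the lowest for Mcm5 and the lowest but one for Mcm6. A further probe set of Mcm6 gave another picture, with 5.43, 5.51 and 4.77 in Cre plus livers, against 4.83, 4.73 and 4.31 in Cre minus livers. All 3 Cre plus values of that probe set were over 2 of the Cre minus values, and Cre plus C lay under Cre minus A. In a fit over every probe set that passed the level, it differed by 0.61 ± 0.24 on the log2 scale (unadjusted p = 0.0451, limma's adjusted p = 0.367). Of 11 detected members with more than 1 probe set over the level, 5 had fold changes of opposite sign. These were Mcm6, Rpa2, Rfc1, Rfc2 and Rrm1. The signs differed only around 0 in Rfc1 (-0.002, -0.02 and 0.03) and Rfc2 (0.06, 0.01 and -0.01), and Rrm1 had 0.001 and -0.18. Rpa2 had -0.08 on its brightest probe set and 0.37 ± 0.15 (unadjusted p = 0.0509, limma's adjusted p = 0.378) on another. That other probe set had 5.80, 5.77 and 5.73 in Cre plus livers, against 5.32, 5.15 and 5.72 in Cre minus livers, without overlap.

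Of the other genes nearest to a difference by p, Slbp and Rfc3 were higher in value in Cre plus livers and Prim1 and Gins4 lower. Slbp had 8.01, 7.87 and 8.31 in Cre plus livers, against 7.94, 7.53 and 7.94 in Cre minus livers (log2 fold change 0.26 ± 0.16, limma's adjusted p = 0.503). It was 0.13 without Cre minus B and 0.14 without Cre plus C. Prim1 had 4.83, 4.74 and 4.85 in Cre plus livers, against 4.85, 4.93 and 5.03 in Cre minus livers (log2 fold change -0.13 ± 0.07, limma's adjusted p = 0.435). Gins4 had 6.36, 6.14 and 6.41 in Cre plus livers, against 6.61, 6.42 and 6.41 in Cre minus livers. Its fold change on the log2 scale was -0.17 ± 0.10 (limma's adjusted p = 0.471), and the groups met at Cre minus C. Values for Rfc3 (0.11 ± 0.09), Fen1 (0.11 ± 0.10) and Dut (-0.07 ± 0.07) had adjusted p-values of 0.623, 0.650 and 0.668. Leaving out 1 liver took Rfc3 to 0.03 (Cre plus A), Fen1 to 0.01 (Cre minus A) and Dut to -0.01 (Cre minus C). Pcna, with means of 9.51 ± 0.14 in Cre plus livers and 9.58 ± 0.09 in Cre minus livers (SD, n = 3 each), had a log2 fold change of -0.07 and a 95% interval of -0.30 to 0.15.

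Single livers stood out from others of their group. Cre minus A had the highest value of the 6 in 12 of the 31 detected genes (38.7%), against 23.8% of all genes tested. These 12 were Mcm5, Mcm6, Mcm7, Mcm10, Gins1, Gins4, Pcna, Rfc4, Pola2, Pold2, Rpa1 and Rpa2. Set against the Cre minus mean of each gene, the mean shift over the 31 genes was 0.04, 0.02 and -0.08 in the Cre plus livers A, B and C, against 0.10, -0.06 and -0.05 in the Cre minus livers A, B and C. Cre plus A and B lay within the span of the Cre minus shifts, and Cre plus C lay just under it. For the 6 origin licensing genes the shifts ran from -0.21 (C) to 0.14 (A) among Cre plus livers, and from -0.14 (C) to 0.24 (A) among Cre minus livers. These shares and shifts are descriptions and were not tested.

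Other cell cycle genes were read from lists arranged by role. Of 39 measured further replication and S-phase genes, 19 (48.7%) were detected, 11 with higher and 8 with lower values in Cre plus livers, a median log2 fold change of 0.04 and 0 past the threshold or at an unadjusted p under 0.05 in limma. The 3 with the smallest p were the polymerase epsilon subunit Pole4 at -0.16 ± 0.08, the origin recognition subunit Orc5 at -0.33 ± 0.18 and the deubiquitinase Usp1 at 0.26 ± 0.15. Of 29 measured mitosis and G2 genes, 2 (6.90%) were detected, against 47.0% of all genes. These were the cyclin gene Ccnf at -0.14 ± 0.17 and the spindle checkpoint gene Mad2l1 at -0.18 ± 0.12. The 27 undetected ones had mean levels from 2.12 to 3.59, and the range over the arrays was under 0.15 in 24 of them. Among them were the proliferation marker Mki67, at 2.88 to 2.91 in Cre plus livers and 2.90 to 2.93 in Cre minus livers, and the topoisomerase Top2a, at 3.48 to 3.53 over the 6 livers. Ccna2, the S-phase cyclin, lay between 2.54 and 2.58 in all 6 livers. Mki67, Top2a and Ccna2 were picked after their values were seen.

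Genes that control RB and E2F, upstream of the replication set, were detected more widely, with 20 of 30 measured (66.7%). Values in Cre plus were higher for 7 and lower for 13, with a median of -0.03. None passed over all genes in limma. At an unadjusted p under 0.05 there were 4 of 20, 2 higher and 2 lower, against 14.8% of all genes tested, and the groups did not overlap in 5 of 20, against 21.2%. Both counts lie near the shares over all genes, so the genes named here are given as values. The lower ones were the D cyclins Ccnd1 and Ccnd3, which start the phosphorylation of RB. Ccnd1 had 8.16, 8.58 and 8.29 in Cre plus livers, against 8.96, 8.89 and 9.19 in Cre minus livers (log2 fold change -0.67 ± 0.14, limma's adjusted p = 0.146). Ccnd3 had 7.58, 7.54 and 7.63 in Cre plus livers, against 7.95, 7.86 and 7.76 in Cre minus livers (log2 fold change -0.27 ± 0.07, limma's adjusted p = 0.192). For both D cyclins the 3 Cre plus values lay under all 3 Cre minus values, and the other genes without overlap were E2f8, Cks1b and Lin37. The higher ones were E2f8, an E2F family member that represses transcription, at 0.31 ± 0.09 with adjusted p = 0.226, and Cks1b, a small cyclin-dependent kinase subunit, at 0.22 ± 0.07 with adjusted p = 0.239. E2f8 had 6.55, 6.76 and 6.61 in Cre plus livers, against 6.32, 6.22 and 6.45 in Cre minus livers.

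Markers of other liver cells were read beside these genes. All 12 Kupffer cell and macrophage markers were detected and had lower values in Cre plus livers, 8 of them at an unadjusted p under 0.05 (8.21% of all genes tested were lower at that p, and 53.5% were lower at any p) and 0 past the threshold in limma. Their mean log2 level was 7.43 to 7.62 in Cre plus livers and 7.87 to 8.01 in Cre minus livers. Of the sinusoidal endothelial markers, 9 of 10 were detected, 8 with lower values in Cre plus livers. Of the 9 detected, 3 were lower at an unadjusted p under 0.05, against 8.21% of all genes tested. The 1 higher marker had the largest change in size, a log2 fold change of 0.91, at an unadjusted p over 0.05. The lowest fold change was -0.54. The mean level of the detected endothelial markers was 7.24 to 7.36 in Cre plus livers and 7.40 to 7.45 in Cre minus livers. Stellate cell and fibroblast markers, all 10 detected, had 6.81 to 7.11 in Cre plus livers and 6.81 to 6.92 in Cre minus livers, with 6 higher and 4 lower in Cre plus and 2 of the higher ones at an unadjusted p under 0.05 (6.62% of all genes). Of the lymphocyte markers 1 of 9 was detected, of the neutrophil markers 2 of 8, of the cholangiocyte markers 1 of 5 and of the erythroid markers 1 of 5. Cre plus A stood apart in some of these. The detected neutrophil markers, S100a8 and S100a9, had a mean log2 level of 9.66 there, against 7.92 to 8.20 in the other 5 livers, and the cholangiocyte marker Sox9 had 6.70, against 5.60 to 5.96. Which cells the replication transcripts come from, and the part of these markers in the values above, was not tested.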

How the data were processed

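Arrays were made from 3 Cre plus and 3 Cre minus livers at 18 hours. The deposited log2 values come from GCRMA, per the submitters' processing notes, and its version was not known here. GCRMA removes background estimated from probe sequence and normalizes the arrays together. Values near background are compressed, which shrinks fold changes there. Of 45101 probe sets, 64 controls were left out, and 34958 had 1 symbol in the platform annotation, 932 several and 9211 none. Through the Entrez ID, 34754 matched a RefSeq table, and 0 symbols changed. Arrays have no read depth, and their number limits the precision.

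Genes over log2 4 in 3 or more arrays, on their brightest probe set, were compared with limma 3.58.1 (R 4.3.3), using lmFit and eBayes without a block, two-sided, with Benjamini-Hochberg adjustment over 8554 genes; single-gene adjusted p-values are limma's. The fit was tested on simulated data, where it recovered 39.9% of changes of 0.5 on the log2 scale. The simulated spread was drawn from limma's prior, and 200 genes were changed in each simulated set, by 0.5 to 4. Many changed genes make the adjusted threshold easier to pass, and 2 genes passed it in these data. That share therefore need not hold for these arrays and may be too high for them. Fold changes are Cre plus minus Cre minus. The members and lists were chosen with earlier results of these data known, so no p was adjusted over a list. All members were named by level, and fold changes with p were given for those at an unadjusted p under 0.05, filled up to 10 by smallest p, with the 3 genes of smallest p from each other cell cycle list, of which mitosis and G2 held 2. Cks1b and Lin37 were added after their values were seen.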

Additional observations from a re-analysis of the deposited data

How the results depend on the processing

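No member passed an adjusted p under 0.05 in limma under any of the 15 alternatives, and the smallest adjusted p of a member ranged from 0.167 without Cre plus B to 0.600 with no filter. The fold changes of the 10 members given with a p kept their sign in all 146 alternative values, but not their size, as given in the report for single arrays, with Gins4 between -0.23 and -0.09. Members at an unadjusted p under 0.05, 1 in the report, were 2 with no filter (Ung and Rfc5), 2 with the filter at log2 6 (Ung and Mcm10), 2 with every kept probe set tested (an alternative chosen after seeing the data), 3 with a replicate block (Ung, Mcm7 and Slbp), and 0 to 1 with an array left out. Over all genes, 2 passed in the report, 0 with no filter, 56 with the filter at log2 6, 0 with the replicate block and 0 to 13 with an array left out. The members' median ranged from -0.036 to 0.019 with an array left out. The arrays share letters, but no Cre plus array deviated most like the Cre minus array of its own letter. The correlations were -0.15 for A, -0.10 for B and 0.02 for C. All such correlations between the groups were weak, from -0.15 to 0.19. No sign of pairing by letter was seen, but a weak pairing, or one that touches few genes, would not show in this check. Detection gave 31 members and 16 at log2 6, 22 at log2 5, 36 at log2 3.5, 27 without the _x_at and _s_at probe sets and 27 when a range of at least 0.15 was also asked (chosen after seeing the data). Mcm4 was lost without Cre plus A, Cre plus B or Cre minus A, which left 30. Signal near background limits what can be said of the 26 undetected members.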
